A study of Mus musculus with 12 samples.

Results

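Mitochondrial ribosomal protein genes were followed in breast tumours of 12 MMTV-PyMT mice. The genes were chosen by annotation and name, as protein-coding genes whose symbol begins with Mrpl or Mrps followed by a digit. This gave 78 of the 55487 genes counted, 49 named Mrpl, for the large subunit, and 29 named Mrps, which encode small subunit proteins with exceptions such as Mrps30 and Mrps18a. Tumours came from 6 mice carrying Bad3SA and from 6 mice with wild-type Bad (Bad_WT), all of strain C57BL/6J and all carrying MMTV-PyMT, a transgene that places the middle T oncogene of polyomavirus under the promoter of mouse mammary tumour virus, which is active in mammary epithelium. BAD is a pro-apoptotic BCL2 family protein, and in the 3SA form its regulatory serines are replaced by alanine, so that the comparison asks what in the tumour transcriptome differs when those serines cannot be phosphorylated. The mice were 22.9 to 31.1 weeks old at end-point in the Bad3SA group and 21.3 to 27.1 weeks old in the Bad_WT group. Mean age was 27.5 ± 2.85 weeks in Bad3SA mice and 24 ± 1.93 weeks in Bad_WT mice (SD, n = 6 each; exact two-sided permutation test, p = 0.0433).

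The mitochondrial ribosome translates the few mRNAs encoded by mitochondrial DNA, all of which specify subunits of the respiratory chain or the ATP synthase. Its rRNAs come from mitochondrial DNA, whereas its proteins are encoded in the nucleus, made on cytosolic ribosomes and imported. Many of these proteins have bacterial counterparts, and others were added in the mitochondrial lineage and line the outside of the particle. Every respiratory complex except complex II holds subunits that this ribosome makes.

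Polyadenylated RNA was sequenced in 1 library per mouse, and total counts ran from 58096172 (Bad3SA 5) to 83296370 (Bad_WT 2). All 10 luminal epithelial markers examined were detected in every tumour, among them Krt8 at 1060 to 1580 CPM (counts scaled to library size, with TMM factors) and Epcam at 795 to 1520 CPM. Of the 78 genes, 77 passed the filter on low counts. The exception, Mrpl53 (GRCm38 chromosome 6, 83109040 to 83109939, plus strand), was listed at 0 counts in all 12 tumours. In the annotation, 88.0% of its exon bases are shared with Gm42688 on the same strand or Ccdc142os on the other, which had 208 and 394 counts over all tumours. A total of 33 members share some exon bases with another gene, and in Mrps25, Mrps34 and Mrpl53 the shared part exceeds 50% of the exon bases. The sources used here do not say how the counting treated such reads. Near-identical processed pseudogenes exist for 6 members, and these copies held at most 1.171% of the member's own counts.

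The members lie on 17 chromosomes, 11 of them on chromosome 11. RefSeq gave a window of 300 bases, 250 before and 50 after the start, for 69 of the 78 members. Letters recognised by 3 classes of factor known to act on nuclear genes for mitochondrial proteins were searched on both strands. These were GCGCA and GCGC with 1 base of any kind between them for NRF1, CCGGAAG for ETS factors such as GABPA, and AAGATGGC for YY1. The ETS letters were found in 26 of 69 members (37.7%), against 12.9% of 17492 protein-coding genes with a window. The NRF1 letters were found in 13 (18.8%) against 7.2%, and the YY1 letters in 12 (17.4%) against 3.6%. At least 1 of the 3 was found in 43 members (62.3%), against 21.0% of protein-coding genes. The ETS and YY1 letters can overlap at AAG, and in no member window did they do so. The background was not confined to genes that passed the filter on low counts, so the excess may not be particular to the members. These matches describe letters and not binding. Several members hold a pair of different motifs, Mrps26 and Mrps27 among them. The windows of 4 others, described below, are shown to make the layout visible, in RefSeq sequence on GRCm38.p6. They run from 5′ to 3′ on the strand of the gene, with the motifs in capitals on either strand. They are Mrps21 (chr3:95871465-95871764, minus strand; NRF1 and ETS), Mrpl57 (chr14:57825989-57826288, plus strand; NRF1 and ETS), Mrps12 (chr7:28741772-28742071, minus strand; YY1 and ETS) and Mrps18a (chr17:46110754-46111053, plus strand; ETS and YY1).
Mrps21: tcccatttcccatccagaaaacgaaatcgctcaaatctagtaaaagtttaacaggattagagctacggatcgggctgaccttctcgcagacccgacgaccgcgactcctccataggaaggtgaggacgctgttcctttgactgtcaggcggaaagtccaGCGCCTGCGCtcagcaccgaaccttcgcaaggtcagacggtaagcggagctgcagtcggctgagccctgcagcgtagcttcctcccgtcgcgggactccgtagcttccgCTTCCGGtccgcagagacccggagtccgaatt
Mrpl57: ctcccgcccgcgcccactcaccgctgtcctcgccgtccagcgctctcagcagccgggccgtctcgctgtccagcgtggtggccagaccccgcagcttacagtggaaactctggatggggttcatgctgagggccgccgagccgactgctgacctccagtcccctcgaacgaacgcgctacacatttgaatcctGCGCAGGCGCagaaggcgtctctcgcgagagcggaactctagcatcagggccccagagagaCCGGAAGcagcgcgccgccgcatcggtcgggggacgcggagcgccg
Mrps12: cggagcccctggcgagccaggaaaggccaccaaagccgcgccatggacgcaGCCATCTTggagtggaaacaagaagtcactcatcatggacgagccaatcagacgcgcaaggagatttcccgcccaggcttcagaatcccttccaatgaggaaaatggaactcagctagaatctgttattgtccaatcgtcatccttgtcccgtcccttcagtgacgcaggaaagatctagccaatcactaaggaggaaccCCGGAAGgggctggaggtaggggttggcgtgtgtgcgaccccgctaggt
Mrps18a: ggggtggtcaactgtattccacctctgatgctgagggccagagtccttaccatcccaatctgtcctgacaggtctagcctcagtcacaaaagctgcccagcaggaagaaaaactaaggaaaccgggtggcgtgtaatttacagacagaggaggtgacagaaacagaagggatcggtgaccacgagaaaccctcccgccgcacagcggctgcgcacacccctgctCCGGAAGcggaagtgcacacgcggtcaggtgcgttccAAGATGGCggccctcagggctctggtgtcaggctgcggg

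A feature of position was also shared. In 18 of the 78 members (23.1%) another protein-coding gene starts on the opposite strand within 1000 bp, facing away, against 6.8% of 21974 protein-coding genes. That background, too, was not confined to genes that passed the filter. The partners include Sars2 (beside Mrps12), which encodes the mitochondrial seryl-tRNA synthetase, Psma2 (beside Mrpl32), a proteasome subunit, and Fau (beside Mrpl49), which encodes a cytosolic ribosomal protein.

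No mitochondrial ribosomal protein gene passed the test between genotypes. With edgeR and an adjusted p under 0.05, 0 of 77 were called, against 1.38% of the 18019 genes tested. The calls over all genes were 0.622% higher and 0.76% lower in Bad3SA. DESeq2 called 0 of 77 members (2.02% of genes higher, 2.19% lower), limma voom with quality weights called 0 (1.28% higher, 1.93% lower), and the authors' deposited table has 0 below an adjusted p of 0.05 (1.91% higher, 2.1% lower). At an unadjusted p under 0.05, edgeR gave 11 of 77 members higher in Bad3SA (14.3%, against 7.18% of all genes) and 0 lower (against 9.02%). These 11 were Mrpl54, Mrpl57, Mrpl33, Mrpl52, Mrpl11, Mrps16, Mrps26, Mrpl24, Mrps21, Mrpl4 and Mrpl37. In no member did the ranges of the groups separate in either direction, where 0.96% of all genes had every Bad3SA tumour above and 1.27% every Bad3SA tumour below the Bad_WT range.

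The fold changes nonetheless leaned one way. The log2 fold change, Bad3SA over Bad_WT, was above 0 in 73 of 77 members (94.8%), against 50.4% of all genes tested. Its median was 0.24 over the members, which is 1.18-fold, and 0.00 (0.0033) over all genes tested. By name, the median was 0.2406 over 48 Mrpl genes and 0.2443 over 29 Mrps genes. It was 0.26 over the 48 members with a bacterial homologue and 0.23 over the 29 tested without one, and 0.08 in each of these 4 groups without Bad3SA 5.

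**Figure D1:**
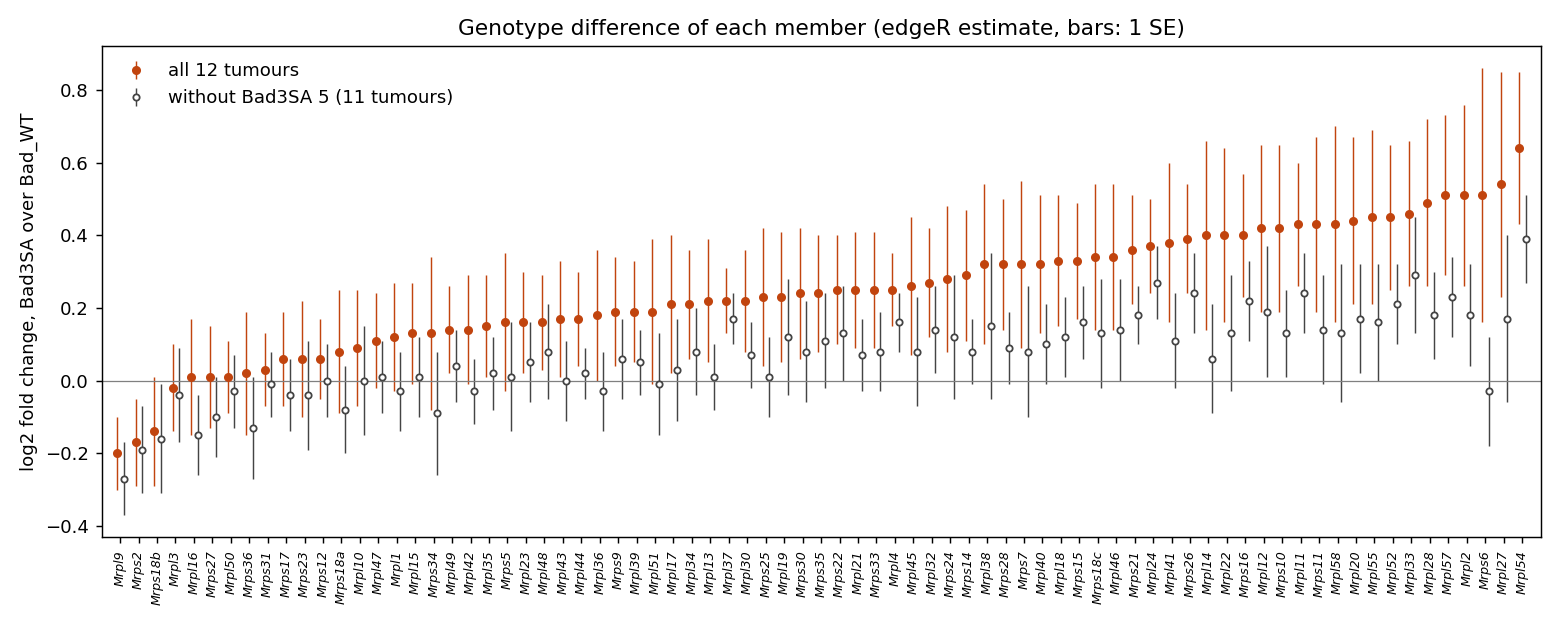
Log2 fold change, Bad3SA over Bad_WT, of the 77 genes tested (y axis), ordered by size along the x axis, with the standard error of each as a bar; filled points are from all 12 tumours and open points leave out Bad3SA 5. With all tumours 73 of 77 points lie above 0, and 57 do without Bad3SA 5, with a median of 0.08.

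One tumour carried much of that lean. Bad3SA 5 was the highest of the 12 tumours for 72 of 77 members (93.5%), against 20.2% of all genes tested. The mean log2 CPM over the members was 5.42, 5.20, 5.21, 5.37, 6.16 and 5.66 in Bad3SA 1 to 6, and 5.32, 5.19, 5.40, 5.29, 5.16 and 5.43 in Bad_WT 1 to 6. Bad3SA 5 and Bad3SA 6 lay above every Bad_WT tumour, Bad3SA 1 and 4 lay inside the Bad_WT range, and so did Bad3SA 2 and 3 near its lower end. As a share of all counts, the members took 0.313 to 0.608% in Bad3SA tumours and 0.304 to 0.373% in Bad_WT tumours.

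Without Bad3SA 5, the median log2 fold change of the members was 0.08 (0.0792) against -0.01 over all genes, and 57 of 77 (74%) were above 0 against 48.1% of all genes. At an unadjusted edgeR p under 0.05, 6 members (7.79%) were then higher in Bad3SA, against 5.59% of all genes, and 1 (1.3%), Mrpl9, was lower, against 7.6%. None passed the adjusted threshold with edgeR (1.05% of all genes did). Leaving Bad3SA 5 aside, the highest of the other 11 tumours was Bad3SA 6 for 45 members and Bad_WT 6 for 19. The lowest of all 12 was Bad_WT 5 for 33 members, Bad_WT 2 for 12, Bad3SA 2 for 11 and Bad3SA 3 for 10. The matching shares over all genes were not counted for these tumours, so the counts may not be particular to the members. In bulk tumour RNA, fewer cells of a type and less RNA per cell cannot be told apart.

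**Figure D2:**
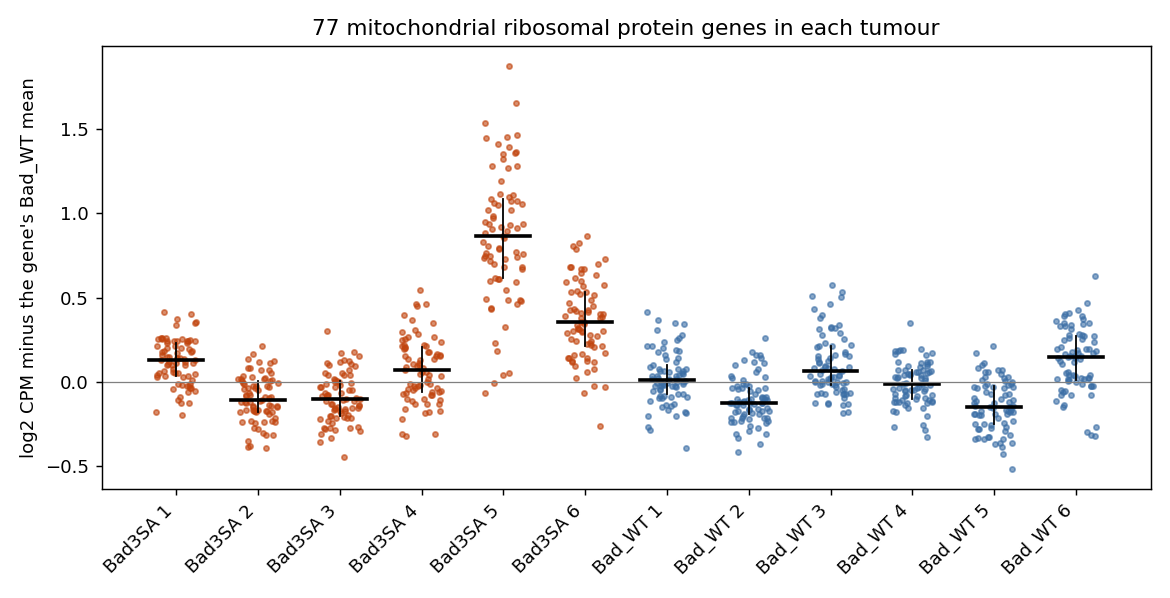
Log2 CPM of each of 77 members minus its mean over the 6 Bad_WT tumours (y axis), for each tumour along the x axis, with Bad3SA tumours to the left; points are genes, the horizontal bar is their median and the vertical line runs between their quartiles. The median is 0.87 in Bad3SA 5 and 0.35 in Bad3SA 6, and lies between -0.15 and 0.15 in the other tumours.

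Bad3SA 5 also stood apart in other ways. It had the lowest total count and came from the oldest mouse, at 31.1 weeks. Genes of short exon length were high in it across the genome. Exon length here joins the exons of all basic annotated transcripts of a gene, so it can exceed the length of the mRNA present. With all genes tested split by exon length into 5 bins of near-equal size, their median log2 CPM in Bad3SA 5 relative to the Bad_WT mean ran 0.65, 0.32, 0.01, -0.22 and -0.46 from the shortest bin to the longest. Bad3SA 6 showed the same order with smaller values, 0.35, 0.12, -0.01, -0.14 and -0.21, and the other 10 tumours stayed within 0.20 of 0. Members are mostly short, with a median exon length of 1380.5 bp, and 43 of 77 fell in the shortest bin (up to 1480 bp).

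In each bin of this joined exon length, which is not mRNA length, the members' median in Bad3SA 5 lay above that of all genes tested. Their medians there were 0.97, 0.46, 0.91, 0.72 and 0.61 from the shortest bin to the longest, over 43, 11, 11, 7 and 5 members. In Bad3SA 6 they were 0.38, 0.16, 0.53, 0.34 and 0.27. With each tumour's dependence on exon length removed by offsets, a setting added after the data were seen, the median log2 fold change of the members was 0.12 with 58 of 77 above 0, and 0 were called. Age was also not balanced between the groups: with end-point age as a covariate, the median was 0.07 with 63 of 77 above 0. What part exon length or age has in the genotype difference was not tested.

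**Figure D3:**
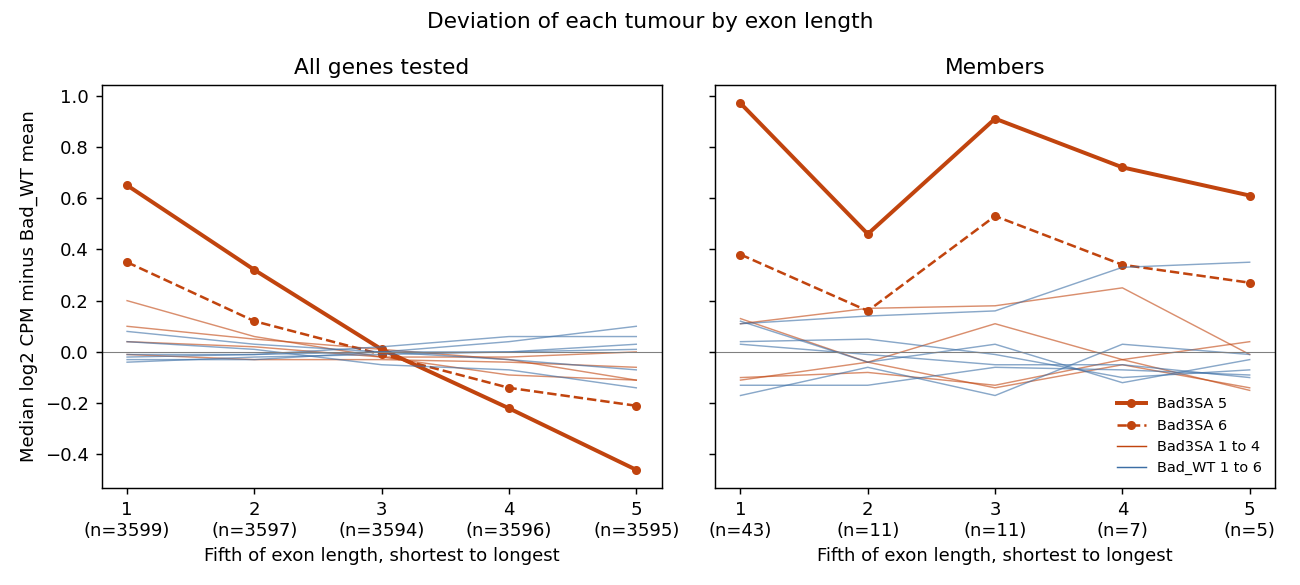
Median log2 CPM relative to the Bad_WT mean (y axis) in each of 5 bins of exon length (x axis, shortest to longest), 1 line per tumour, for all genes tested and for the members. In Bad3SA 5 all genes run 0.65 to -0.46 from the shortest to the longest bin, while the members stay between 0.46 and 0.97.

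Markers of other cell types were set beside Bad3SA 5 as well. All 5 adipocyte markers were highest in that tumour. Their summed level was 5.44 to 157 CPM in Bad3SA tumours and 2.5 to 43.4 CPM in Bad_WT tumours. Bad3SA 5 held the 157 CPM, of which Fabp4 gave 111 CPM. The mean log2 CPM of these markers was 4.23 above the Bad_WT mean in Bad3SA 5. It was 2.59 above it in Bad3SA 2, 2.48 in Bad3SA 3 and 2.66 in Bad_WT 4. The members' mean log2 CPM in Bad3SA 2, Bad3SA 3 and Bad_WT 4 was -0.1, -0.09 and -0.01 relative to the Bad_WT mean. Of 7 T cell markers, 4 were highest in Bad3SA 5, and their sum was 9.67 to 21.3 CPM in Bad3SA tumours and 3.43 to 13.1 CPM in Bad_WT tumours. No adipocyte or T cell marker was at 0 in any tumour. Of 6 macrophage markers 1 was highest in Bad3SA 5, as was 1 of 2 tested B cell markers. Of the fibroblast, endothelial, skeletal muscle and erythroid markers, 0 were highest there. Skeletal muscle markers summed to 1060 CPM in Bad_WT 4 and 10.6 CPM in Bad3SA 5. Luminal epithelial markers summed to 4590 to 6790 CPM in Bad3SA tumours, 6140 CPM in Bad3SA 5, and to 5220 to 6610 CPM in Bad_WT tumours. Their mean log2 CPM, in which each marker counts equally, was -0.22 in Bad3SA 5, -0.48 in Bad3SA 6 and -0.53 in Bad_WT 6 relative to the Bad_WT mean. Krt8 (1580 CPM) and Elf5 (497 CPM) were at their highest of 12 tumours in Bad3SA 5, whereas Cdh1 (516 CPM) and Pgr (2.94 CPM) were at their lowest. The part of these cells in the members' levels was not tested.

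Among large subunit genes, Mrpl54 had the highest fold change. It encodes a protein of the large subunit with no bacterial counterpart (ENSMUSG00000034932, GRCm38 chromosome 10, 81264713 to 81266934, minus strand). It stood at 46.8, 60 and 122 CPM (lowest, median, highest) in Bad3SA tumours and at 38.1, 44.8 and 51.1 CPM in Bad_WT tumours. In 4 of 6 Bad3SA tumours it exceeded every Bad_WT tumour, and the groups overlapped. The log2 fold change was 0.64 (SE 0.21, edgeR adjusted p = 0.173), and 0.39 without Bad3SA 5 (edgeR adjusted p = 0.207). In the authors' deposited table, whose fold changes run Bad_WT over Bad3SA, Mrpl54 has -0.58 with an adjusted p of 0.0986, the smallest among the members.

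Mrpl2, a counterpart of bacterial L2 near the peptidyl transferase centre, stood apart in 1 tumour. It stood at 70.5, 57.2, 58.1, 60.4, 160 and 73.2 CPM in Bad3SA 1 to 6 and at 58.1, 47.5, 78.7, 56.3, 44.5 and 52.2 CPM in Bad_WT 1 to 6. Only Bad3SA 5 lay outside the Bad_WT range on the high side, at 160 CPM. The log2 fold change was 0.51 (SE 0.25, edgeR adjusted p = 0.336), and 0.18 without that tumour.

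Mrpl27, the counterpart of bacterial L27, stood at 37.7, 49.6 and 134 CPM in Bad3SA tumours and at 29.8, 40.7 and 61.7 CPM in Bad_WT tumours. Its log2 fold change was 0.54 (SE 0.31, edgeR adjusted p = 0.4), and 0.17 without Bad3SA 5. Mrpl57, a large subunit protein without bacterial counterpart, stood at 38.7, 45.7 and 102 CPM in Bad3SA tumours and at 32.1, 38.5 and 44.3 CPM in Bad_WT tumours. In 4 of 6 Bad3SA tumours Mrpl57 exceeded the Bad_WT range, and its fold change was 0.51 in log2 (SE 0.22, edgeR adjusted p = 0.276), and 0.23 without Bad3SA 5.

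The stalk, which recruits translation factors to the large subunit, held some of the larger values, though not in every gene. Mrpl12, the counterpart of bacterial L7/L12, which has also been reported to bind the mitochondrial RNA polymerase, stood at 86.1, 115 and 231 CPM in Bad3SA tumours and at 80, 106 and 117 CPM in Bad_WT tumours (log2 fold change 0.42, SE 0.23, edgeR adjusted p = 0.386). Mrpl11, at the base of the stalk, stood at 38.8, 45.7 and 81.9 CPM in Bad3SA tumours and at 32.3, 38.2 and 43 CPM in Bad_WT tumours, with 4 of 6 Bad3SA tumours above the Bad_WT range (log2 fold change 0.43, SE 0.17, edgeR adjusted p = 0.248). Of the 4 tested stalk genes, Mrpl54, described above, had 0.64 and Mrpl10 had 0.09 (SE 0.16, edgeR adjusted p = 0.792). The median log2 fold change was 0.42 over these 4 genes. It was 0.32 over 6 genes of the central protuberance and 0.19 over 9 genes at the polypeptide exit. Without Bad3SA 5 these medians were 0.22, 0.13 and 0.05. None of these groups had a call, and the differences between them were not tested.

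At the exit side, Mrpl45, which holds the ribosome to the inner membrane, stood at 50.4, 60.5 and 107 CPM in Bad3SA tumours and at 43.4, 60.1 and 66.6 CPM in Bad_WT tumours. Mrpl44, a large subunit protein related to RNase III, stood at 40.1, 45.9 and 73.5 CPM in Bad3SA tumours and at 43, 44.1 and 44.6 CPM, a narrow range, in Bad_WT tumours. Mrpl58, a peptidyl-tRNA hydrolase that became a ribosomal protein, stood at 36.8, 46.2 and 110 CPM in Bad3SA tumours and at 33.2, 38.7 and 59.1 CPM in Bad_WT tumours. In all 3 the groups overlapped and the highest value was from Bad3SA 5.

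Some members are reported to act outside the ribosome. Mrpl41, a large subunit protein with reported links to apoptosis, stood at 28.6, 30.9 and 69.8 CPM in Bad3SA tumours and at 22, 29.3 and 34.8 CPM in Bad_WT tumours (log2 fold change 0.38, SE 0.22, edgeR adjusted p = 0.389). Mrps30, a large subunit protein despite its name and likewise linked to apoptosis, stood at 20.4, 26 and 40.8 CPM in Bad3SA tumours and at 18.9, 22.2 and 30.5 CPM in Bad_WT tumours (log2 fold change 0.24, SE 0.18, edgeR adjusted p = 0.513). Mrps36 has been found with the oxoglutarate dehydrogenase complex. It stood at 15.5, 17.5 and 29 CPM in Bad3SA tumours and at 16.2, 18.4 and 24.4 CPM in Bad_WT tumours. On the log2 scale its fold change was 0.02 (SE 0.17, edgeR adjusted p = 0.961), and -0.13 without Bad3SA 5.

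Among small subunit genes, Mrps6, the counterpart of bacterial S6, moved far when Bad3SA 5 was left out. It stood at 42.1, 38.3, 34.9, 62.6, 174 and 58.5 CPM in Bad3SA 1 to 6 and at 56.1, 46.2, 45.6, 47, 38.9 and 53.6 CPM in Bad_WT 1 to 6. Bad3SA 1, 2 and 3 lay in the lower part of the Bad_WT range or below it, and Bad3SA 5 was the highest of all. The log2 fold change was 0.51 (SE 0.35, edgeR adjusted p = 0.463), and -0.03 without that tumour. Slc5a3 and Gm49711, on the same strand, share 19.9% of the exon bases of Mrps6.

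Mrps16 and Mrps22, which are mutated in inherited human respiratory chain deficiencies, did not pass. Mrps16 was at 33.6, 39.6 and 68.6 CPM in Bad3SA tumours and at 30, 34.4 and 36.6 CPM in Bad_WT tumours, with 4 of 6 Bad3SA tumours above the Bad_WT range (log2 fold change 0.40, SE 0.17, edgeR adjusted p = 0.268). Mrps22 was at 23.7, 27.4 and 40.6 CPM in Bad3SA tumours and at 20.6, 23.7 and 31.6 CPM in Bad_WT tumours (log2 fold change 0.25, SE 0.15, edgeR adjusted p = 0.422). Mrps12, a counterpart of bacterial S12 at the decoding centre, differed little, at 50, 54.6 and 67.8 CPM in Bad3SA tumours and at 44.8, 55.2 and 62.1 CPM in Bad_WT tumours (log2 fold change 0.06, SE 0.11, edgeR adjusted p = 0.784).

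The S18 paralogues are related proteins that occupy different sites, with Mrps18a in the large subunit. Mrps18c had a log2 fold change of 0.34, Mrps18a of 0.08 and Mrps18b of -0.14, each within 2 standard errors (0.20, 0.17 and 0.15) of 0. Mrps18a stood at 51.3, 58.7 and 97 CPM in Bad3SA tumours and at 50.6, 58.6 and 80.7 CPM in Bad_WT tumours. Mrps18b stood at 11, 12.6 and 14.8 CPM in Bad3SA tumours and at 10.9, 13.6 and 18.1 CPM in Bad_WT tumours.

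In 4 members the log2 fold change was below 0. Mrpl9, the counterpart of bacterial L9, had the lowest value, -0.20 (SE 0.10, edgeR adjusted p = 0.336), and -0.27 without Bad3SA 5. It stood at 51.1, 55.4 and 69.1 CPM in Bad3SA tumours and at 59, 66.8 and 75.9 CPM in Bad_WT tumours, with overlapping groups. Mrps2, the counterpart of bacterial S2, followed with -0.17 (SE 0.12, edgeR adjusted p = 0.501), and stood at 34.6, 39.9 and 49.6 CPM in Bad3SA tumours and at 36.9, 44.9 and 57.8 CPM in Bad_WT tumours. Mrps18b and Mrpl3 (-0.02, SE 0.12) were the others, and Mrps27, a small subunit protein without bacterial counterpart, was at 0.01 (SE 0.14). Mrps2, Mrps18b and Mrpl3 were highest in Bad_WT 6 and Mrpl9 in Bad_WT 4, so Bad3SA 5 was the highest tumour for none of these 4. Their choice by a fold change below 0 favours this. Among Bad3SA tumours alone, Mrpl9 was highest in Bad3SA 5, at 69.1 CPM.

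**Figure D4:**
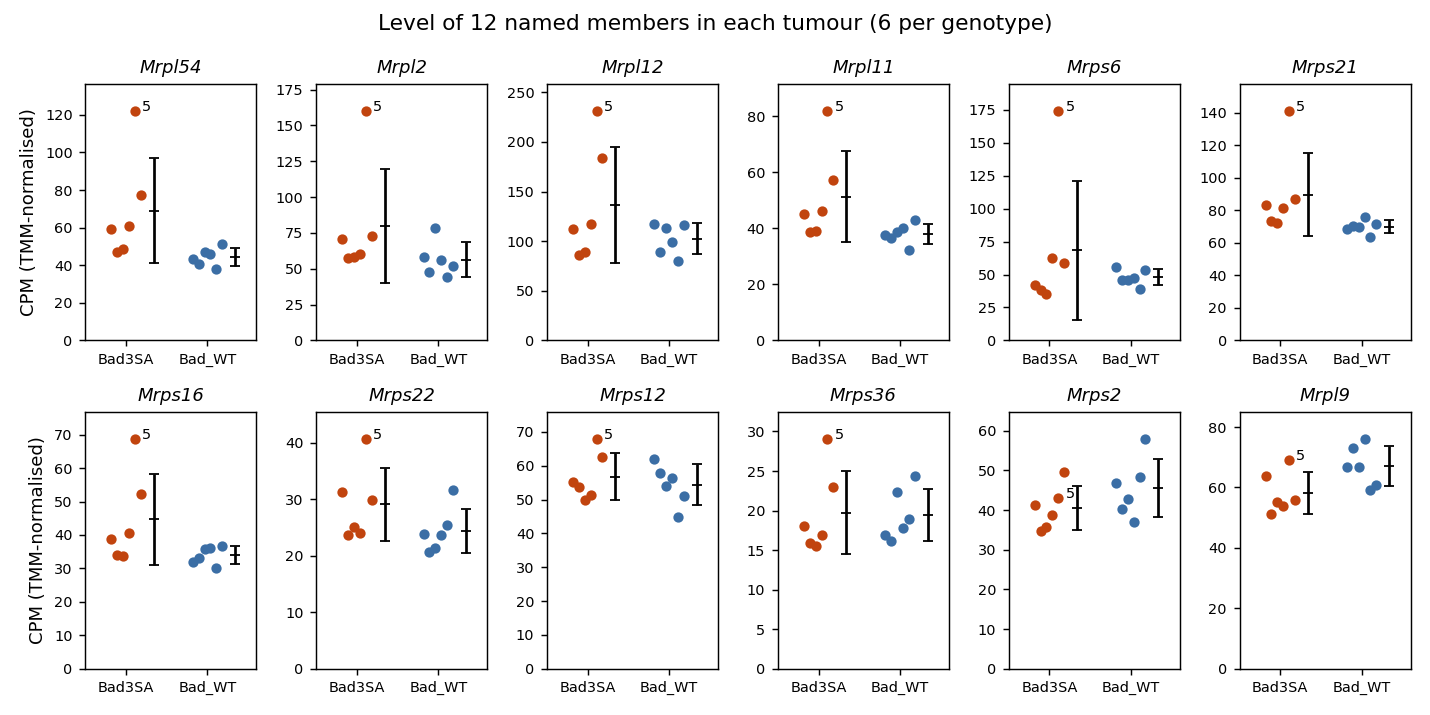
CPM (y axis, from 0) of 12 named members, 1 point per tumour, with the mean and SD of each group beside the points and Bad3SA 5 marked with its number; Bad3SA tumours are on the left of each panel and Bad_WT tumours on the right. Bad3SA 5 stands above the rest in Mrps6, for example, at 174 CPM, and in Mrpl9 the Bad_WT tumours reach 75.9 CPM against 69.1 CPM in Bad3SA tumours.

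Levels differed widely between members. Per kilobase of exon, the mean over 12 tumours was highest for Mrps21 (162 CPM per kb), followed by Mrpl52 (99.8), Mrpl54 (94) and Mrpl12 (90.9). It was lowest for Mrpl1 (5.82) and Mrpl47 (5.88). The lengths join all basic annotated exons of a gene, so this order depends on the annotation. By mean log2 CPM, without length, Mrps18c was lowest (3.02), below Mrpl47 (4.3) and Mrpl1 (4.62). Mrps21, a counterpart of bacterial S21, stood at 72.5, 82.4 and 141 CPM in Bad3SA tumours and at 63.3, 70.2 and 75.8 CPM in Bad_WT tumours (log2 fold change 0.36, SE 0.15, edgeR adjusted p = 0.268). Mrpl52, a large subunit protein without bacterial counterpart, stood at 44, 47.4 and 98.9 CPM in Bad3SA tumours and at 31.3, 43.5 and 46.8 CPM in Bad_WT tumours (log2 fold change 0.45, SE 0.20, edgeR adjusted p = 0.285). At the low end per kb, Mrpl1 stood at 21.1, 24.5 and 38.2 CPM in Bad3SA tumours and at 21.7, 22.6 and 30 CPM in Bad_WT tumours. Mrpl47 stood at 16.6, 19.8 and 26.5 CPM in Bad3SA tumours and at 17.7, 18.7 and 22.4 CPM in Bad_WT tumours. The within-group SD of log2 CPM had a median of 0.30 over the members and ran from 0.12 (Mrpl37) to 0.62 (Mrps6).

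Members with and without the promoter letters had these fold changes. The median log2 fold change was 0.26 over 13 tested members with the NRF1 letters and 0.24 over 55 without. It was 0.25 over 25 with the ETS letters and 0.23 over 43 without. It was 0.17 over 12 with the YY1 letters and 0.25 over 56 without. Leaving out Bad3SA 5, these 6 medians lay between 0.03 and 0.08. No call was made in any of these groups and their differences were not tested. Of the factors themselves, Gabpa was at -0.18 in log2 (SE 0.10, edgeR adjusted p = 0.387), Nrf1 at -0.07 (SE 0.09, edgeR adjusted p = 0.721) and Yy1 at -0.07 (SE 0.12, edgeR adjusted p = 0.775). Gabpb1, a subunit of the ETS factor GABP, was at -0.19 in log2 (SE 0.10, edgeR adjusted p = 0.362), at 29.1, 34.1 and 38.3 CPM in Bad3SA tumours and at 35, 38.6 and 42.4 CPM in Bad_WT tumours. The smallest p among the regulators belonged to Esrra, a nuclear receptor that acts on mitochondrial genes, at 65.8, 73.5 and 84.3 CPM in Bad3SA tumours and at 52.9, 65.3 and 71.5 CPM in Bad_WT tumours. Its fold change was 0.22 in log2 (SE 0.10, edgeR adjusted p = 0.315). None of 15 regulators of mitochondrial transcription and biogenesis was called, and their median was -0.07.

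Genes that act with the mitochondrial ribosome gave 1 call. Ngrn, which encodes neugrin, a factor needed for large subunit rRNA and so for ribosome assembly (GRCm38 chromosome 7, 80261215 to 80265374, plus strand), rose in Bad3SA tumours. It stood at 50.9, 41.9, 43.9, 45.8, 52.6 and 48.4 CPM in Bad3SA 1 to 6 and at 31.5, 34.8, 34.9, 30.1, 32.8 and 36.2 CPM in Bad_WT 1 to 6. Every Bad3SA tumour lay above every Bad_WT tumour, and Bad3SA 5 did not stand apart. The means were 47.2 ± 4.10 CPM in Bad3SA tumours and 33.4 ± 2.32 CPM in Bad_WT tumours (SD, n = 6 each), and the difference was 0.50 in log2 (SE 0.09, edgeR adjusted p = 0.0117). Without Bad3SA 5 it was 0.46 (edgeR adjusted p = 0.01). The call was lost without the filter on low counts (0.47, edgeR adjusted p = 0.0692) and with age as a covariate (0.51, edgeR adjusted p = 0.0906), at a log2 fold change near that above. It was also lost with exon length offsets, at 0.34 (edgeR adjusted p = 0.0839). No exon base of Ngrn is shared with another annotated gene.

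Of 24 assembly factors, Ngrn was the 1 called higher (0.622% of all genes were) and 0 were called lower (0.76%). Their median log2 fold change was 0.08, with 18 above 0, and 0.03 with 14 above 0 without Bad3SA 5. Rbfa, a counterpart of a bacterial small subunit maturation factor, had separate ranges, at 10.2, 11.5 and 13.7 CPM in Bad3SA tumours and 13.9, 15.5 and 17.7 CPM in Bad_WT tumours. At -0.41 in log2 (SE 0.12, edgeR adjusted p = 0.141) it did not pass with edgeR, and did with DESeq2 (adjusted p = 0.0222) and limma voom (adjusted p = 0.0455).

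Mitochondrial ribosomal proteins known by other names had a median of 0.30 over 5 genes, 0.17 without Bad3SA 5, and no call. Dap3, the small subunit GTPase first described as a death-associated protein, stood at 84, 108 and 164 CPM in Bad3SA tumours and at 86.7, 93.9 and 123 CPM in Bad_WT tumours (log2 fold change 0.22, SE 0.16, edgeR adjusted p = 0.496). Chchd1 had 0.38 (SE 0.16, edgeR adjusted p = 0.279) and Aurkaip1 0.37 (SE 0.18, edgeR adjusted p = 0.333), both small subunit proteins. Ptcd3, a small subunit protein with pentatricopeptide repeats, had -0.17 (SE 0.13, edgeR adjusted p = 0.5) and was lowest in Bad3SA 5, at 48.3 CPM.

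Translation factors did not share the lean, with a median of -0.05 over 13 genes and 6 above 0. They were not matched to the members for exon length. Among them Gfm1, an elongation factor G, had -0.20 (SE 0.11, edgeR adjusted p = 0.394), and Mtrf1l, a release factor, -0.24 (SE 0.16, edgeR adjusted p = 0.47). Over 17 mitochondrial aminoacyl-tRNA synthetases the median was 0.05. Of these Cars2, for cysteine, stood at 22.1, 26.6 and 31 CPM in Bad3SA tumours and at 17.1, 19.6 and 21.5 CPM in Bad_WT tumours, with separate ranges (log2 fold change 0.44, SE 0.11, edgeR adjusted p = 0.0768). Without Bad3SA 5 Cars2 passed, at 0.47 (edgeR adjusted p = 0.0434), as it did with DESeq2 (adjusted p = 0.00532) and limma voom (adjusted p = 0.0316). Sars2, for serine, had 0.31 (SE 0.11, edgeR adjusted p = 0.198), beside 0.06 for its divergent neighbour Mrps12.

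Other gene lists also had high values in Bad3SA 5. Relative to the Bad_WT mean, mean log2 CPM in that tumour was 0.90 higher for Mrpl genes and 0.81 higher for Mrps genes. It was 0.91 higher for 89 nuclear genes of the respiratory chain and ATP synthase, 0.73 for 89 cytosolic ribosomal protein genes and 0.63 for 15 import genes. It was 0.31 higher for assembly factors, 0.14 for translation factors and 0.25 for aminoacyl-tRNA synthetases, and -0.13 for the regulators. The lists were not matched for exon length, and its part in these differences was not tested. Over all tumours the median log2 fold change was 0.31 for the respiratory chain genes (79 of 89 above 0, 0 called) and 0.28 for the cytosolic ribosomal protein genes (85 of 89 above 0, 0 called higher and 1 called lower). Without Bad3SA 5 these medians were 0.10 and 0.18, and 0.08 for the members. Over 15 import genes the median was 0.16 with 13 above 0, and 0.01 with 8 above 0 without Bad3SA 5, with no edgeR call in the 15. Among them Timm44, a subunit of the inner membrane import motor, had 0.41 (SE 0.12, edgeR adjusted p = 0.129). Timm44 passed with DESeq2 (adjusted p = 0.0446).

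The mRNAs that this ribosome translates gave no call either. Of 13 mitochondrially encoded mRNAs, 10 passed the filter, with a median log2 fold change of 0.12 and 9 above 0, and of 0.00 (-0.0033) without Bad3SA 5. mt-Co1, a cytochrome oxidase subunit, averaged 5760 CPM in Bad3SA tumours and 5660 CPM in Bad_WT tumours. mt-Atp6 and mt-Co3 averaged 0.74 and 1.38 CPM in Bad3SA tumours and 0.537 and 1.11 CPM in Bad_WT tumours, so the table does not hold these mRNAs at comparable levels, and the sources used here do not say how reads with nuclear copies were counted.

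**Figure D5:**
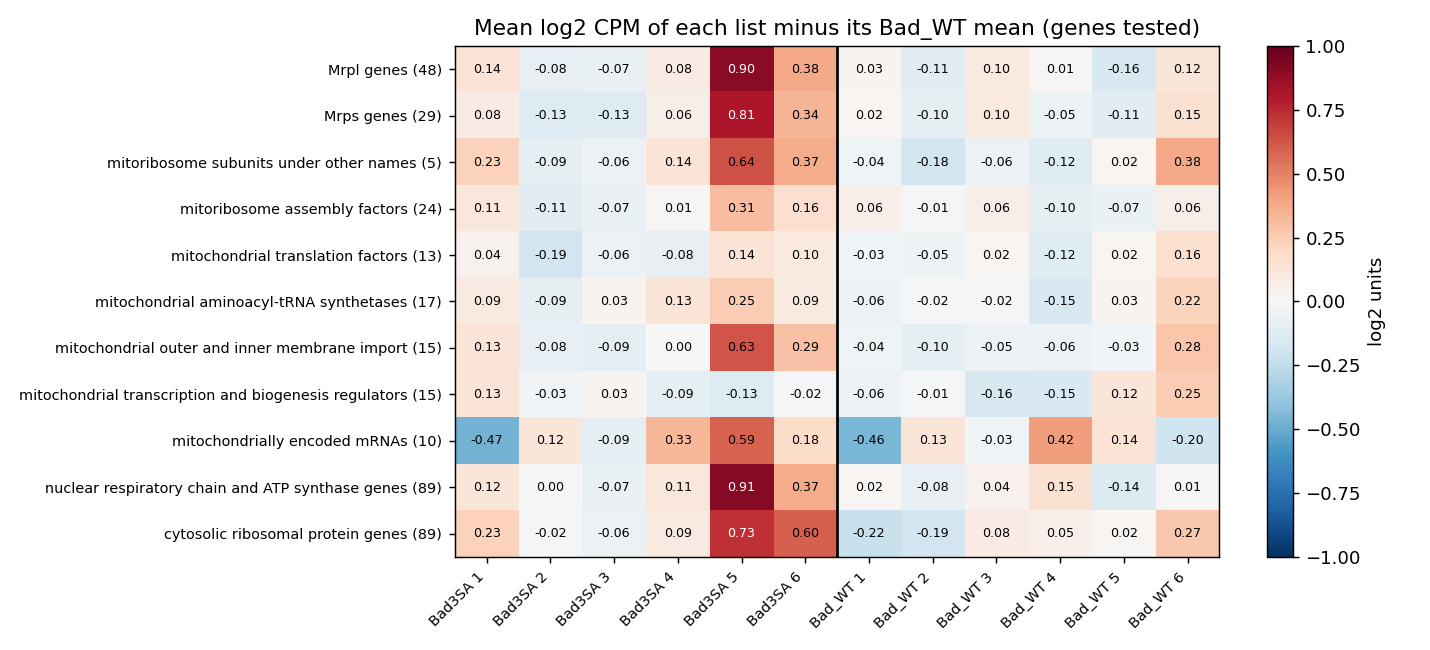
Mean log2 CPM of each gene list minus its Bad_WT mean (colour, log2 units), with lists down the page and tumours along the x axis, Bad3SA on the left. The Bad3SA 5 column is highest for respiratory chain genes (0.91), Mrpl genes (0.90) and Mrps genes (0.81) among the mitochondrial lists and lies at -0.13 for the regulators.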

How the data were processed

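Polyadenylated RNA from 12 breast tumours, 6 of Bad3SA mice and 6 of Bad_WT mice, was sequenced as paired reads of 100 bp, per the labels. The count table deposited by the authors gives whole, unnormalised read counts for Ensembl genes. Their own genotype comparison, per the file headers, lists p-values, log2 fold changes with a standard error and Wald score, and the mean normalised signal. Its sign, Bad_WT over Bad3SA, was read from its rank correlation with the fold changes computed here (-0.997). GRCm38, STAR 2.7.9a, fastp 0.23.1 and DESeq2 are named, per the submitters' processing notes. The strand setting, annotation and tool used to count reads were not given in the sources used here. Therefore overlapping and antisense genes cannot be told apart.

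All 55487 genes were fitted together. filterByExpr of edgeR 4.0.16 left 18019, TMM scaled the libraries, and genotype was tested with the quasi-likelihood F test, with Benjamini-Hochberg adjustment over all genes and calls at 0.05. Standard errors were taken as the size of the log2 fold change over the root of F. Positive fold changes mean higher in Bad3SA. Log2 CPM used a prior count of 2. Each library was a separate mouse. Depth ran from 58096172 to 83296370 counts, so 3 counts, the floor for a gene at 0, correspond to 0.036 to 0.0516 CPM, for counting error only. The fit was tested on simulated counts.

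Exon lengths, GC and shared exon bases came from GENCODE M21, promoter windows from RefSeq, and near-identical copies from BLAST+ 2.17.0 (at least 95% identity). R 4.3.3, limma 3.58.1, DESeq2 1.42.0, pandas 2.3.3 and matplotlib 3.10.9 were used. The members and all lists were chosen with earlier results of these data known. Named members are the 5 highest and 5 lowest log2 fold changes, the 4 highest and 2 lowest levels per kb, and a set by role. Of each companion list, genes that passed and the 2 with the smallest p are named, and Dap3 always. mt-Co1, Mrpl37, Mrpl33, Mrpl24, Mrpl10, Mrpl4, Mrps26, Gabpa, Nrf1, Yy1 and the partners of divergent starts were named after their values were seen. The alternatives tried were each tumour left out, age as a covariate, a block for the title number, a non-robust dispersion, no filter or a filter of 1 CPM in 6 tumours, limma voom with quality weights, the Wald test of DESeq2 and its size factors, with offsets for exon length and for GC added after the data were seen. Age was compared by an exact permutation test.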

Additional observations from a re-analysis of the deposited data

Results flagged for a closer look

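In groups of 6 tumours, the gap of the highest or lowest value to its neighbour, relative to the group's range, was checked for 94 group values of named genes, and 11 exceeded Dixon's 95% critical value of 0.625. Chance gives this in about 1 in 20 groups, and genes of 1 tumour are not independent. The named genes also include the 5 highest and 5 lowest fold changes of the same data, so the 1 in 20 is no fair measure for them. In 8 of the 11 the value that stood apart was Bad3SA 5. Among Bad3SA tumours, log2 CPM in Bad3SA 5 was 7.32 for Mrpl2 (next 6.19), 7.45 for Mrps6 (next 5.97), 7.14 for Mrps21 (next 6.44), 6.63 for Mrpl52 (next 5.83), 6.20 for Mrpl44 (next 5.63) and 6.13 for Mrpl41 (next 5.22). It was 5.93 for Dnajc19, an import motor subunit (next 5.15), and 0.58 for mt-Atp6 (next -0.57). Among Bad_WT tumours, Bad_WT 6 stood apart with log2 CPM of 5.86 for Mrpl3 (next 5.46), 5.21 for Mrps27 (next 4.82) and 4.48 for Mrpl47 (next 4.25). limma voom gave Bad3SA 5 a sample weight of 0.309 and Bad_WT 6 a weight of 0.379, the lowest of the 12.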

How the results depend on the processing

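The count of members called was 0 in each direction under every alternative run, each tumour left out included. The smallest edgeR or other adjusted p among the members ranged from 0.0825 (without Bad3SA 2) to 0.666 (with age). The median log2 fold change of the members stayed above 0 under every alternative, from 0.0467 with limma voom, which gave Bad3SA 5 the lowest weight, to 0.3048 without Bad3SA 3. It was 0.0792 without Bad3SA 5, 0.0715 with age and 0.1152 with exon length offsets, and leaving out each other tumour gave 0.2054 or more. The median of all genes tested moved to 0.1623 in the DESeq2 Wald test and 0.1337 without a filter, where the members' medians were 0.2365 and 0.2079, and lay between -0.0148 and 0.0272 with 1 tumour left out. Same-numbered tumours mostly did not deviate together, with correlations of -0.08, 0.02, -0.22, -0.27, -0.25 and 0.28 for numbers 1 to 6. Only number 6 correlated best with its own number. These values gave no ground to treat the numbers as pairs, and cannot show whether the mice were paired. With the replicate block the members' median was 0.2171, and 63 genes were called higher and 42 lower, against 112 and 137 without it; Ngrn was at 0.499 (edgeR adjusted p = 0.117), and Mrps27 and Mrps36 turned to -3e-04 and -0.0028. The calls over all genes were 231 higher and 348 lower with limma voom, 479 and 519 with the DESeq2 Wald test, 77 and 86 with at least 1 CPM in 6 tumours, and 50 and 23 with age. Leaving out 1 tumour gave 73 (without Bad_WT 5) to 153 (without Bad_WT 4) higher and 61 (without Bad3SA 3) to 162 (without Bad_WT 4) lower.

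Some fold changes turned sign, among them that of Mrps6, at 0.51 in the main fit, and the cause was not tested. With limma voom Mrps6 was at -0.1136, Mrps27 at -0.0606, Mrpl3 at 0.0568, Mrpl1 at -0.0182, Mrps12 at -0.0503, Mrps36 at -0.1093 and Mrps18a at -0.0786. With age Mrps6 was at -0.0937, Mrps27 at -0.0383, Mrpl3 at 0.1197, Mrps18b at 0.0303, Mrps12 at -0.0475, Mrps36 at -0.0816, Mrps18a at -0.0294, mt-Atp6 at -0.1034 and mt-Co3 at -0.1879. With exon length offsets Mrps27 was at -0.1086, Mrpl3 at 0.1034, Mrps12 at -0.1514, Mrps36 at -0.2531 and Mrps18a at -0.1408. With GC offsets Mrps27 was at -0.0274 and Mrpl3 at 0.0128, and without a filter Mrps27 was at -0.0285 and Mrps36 at -0.0174. With 1 tumour left out, Mrps6 ran from -0.0299 to 0.6612, Mrps27 from -0.0952 to 0.0952, Mrpl3 from -0.0982 to 0.0726, Mrpl1 from -0.0285 to 0.1896, Mrps12 from -9e-04 to 0.1174, Mrps36 from -0.1273 to 0.0954, Mrps18a from -0.0774 to 0.1574 and mt-Co3 from -0.0093 to 0.4163. In all of these but Mrpl3 the lowest value was without Bad3SA 5.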
